A study of Mus musculus with 31 samples.

Results

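The 9 genes described here are Nfe2l2, which encodes the transcription factor Nrf2, and 8 antioxidant genes grouped with it, Gclc, Gclm, Gsr, Txnrd1, Srxn1, Nqo1, Hmox1 and Sod2. They were taken by gene name from 2 tables of mouse liver RNA-seq, and each name matched 1 row among 41549 genes in the 5-month table and 1 row among 36333 genes in the old-liver table. All 9 passed the filter on low counts in both sets. Of the 9, Hmox1 was lower in livers labelled as knockouts of both Myc and Mlx than in wild-type livers, and Sod2 was lower in adenomas labelled as Mlx knockouts than in old wild-type livers. No other member passed edgeR's test with all libraries, TMM scaling and a sex term in any of 7 comparisons.

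The 5-month livers came from 4 genotypes. The DKO mice carried floxed alleles of both Mlx and Myc (Mlxloxp/loxp and Mycloxp/loxp) on a B6.129 strain whose Gt(ROSA)26Sor locus holds tm1(cre/ERT2)Tyj, a tamoxifen-inducible Cre, and gave 5 libraries, all male. The MlxKO mice carried Mlxloxp/loxp on the same strain (4 libraries, all male), and the MycKO mice carried Mycloxp/loxp on it (6 libraries, of which 2 were female). The WT mice were C57/B6, with no Cre named (6 libraries, of which 2 were female). These mice were 5 months old and had been fasted for 14 h. The adenomas were 5 liver tumours of mice labelled Alb_CreERT2 and Mlxloxp/loxp, 14 to 17 months old with no fast recorded, 4 labelled female and 1 male. Their counterparts were 5 livers of C57/B6 WT mice, 17 months old with no fast recorded, 2 of them female. Per the labels tamoxifen was injected into every mouse, WT included, for 5 days at 75 mg/kg, at an age of 28 days.

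Tamoxifen activates the Cre-ERT2 recombinase. It is expressed from the Rosa26 locus, which is active in most cell types, in the 5-month knockouts, and from an albumin driver, which acts in hepatocytes, in the adenoma mice. No tumour-free liver of old MlxKO mice was analysed here, so the tumour and the loss of Mlx cannot be told apart in that comparison. Nothing in the labels ties each library to its own animal. The p-values therefore set each difference against the scatter of these libraries, and some of that scatter may be technical.

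Nrf2 is a basic leucine zipper factor that is held in the cytoplasm and sent for degradation by Keap1 and the ubiquitin ligase scaffold Cul3. Oxidants and electrophiles modify Keap1, Nrf2 then builds up, pairs with a small Maf protein and binds antioxidant response elements near its target genes. In liver these targets make and recycle glutathione and thioredoxin and detoxify reactive compounds. Myc and Mlx belong to a different family, whose dimers bind the E-box CACGTG: Myc works with Max, and Mlx with ChREBP or MondoA.

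Promoter windows of 250 bases before and 50 after the RefSeq start (GRCm38.p6) were at hand for 6 of the 9 genes (8 windows in all). Those with an antioxidant response element core are printed, because Nrf2 binds such elements. The core searched was TGACNNNGC on both strands, and it lay in 4 of these 8 windows, 1 each of Nfe2l2, Gclm, Txnrd1 and Srxn1, beside 12.4% of all 32851 windows of the same length. A wider form, TGANNNNGC on both strands, which includes the core and was added after the windows had been seen, lay in 5 of the 8 windows, in the same 4 members, and in 41.3% of all windows. The E-box CACGTG, which reads the same on both strands and shares no letters with a match of the core here, lay in none of the members' windows and in 7.15% of all windows. Capitals mark the matches of the wider form.
Srxn1, chr2:152105274-152105573, plus strand: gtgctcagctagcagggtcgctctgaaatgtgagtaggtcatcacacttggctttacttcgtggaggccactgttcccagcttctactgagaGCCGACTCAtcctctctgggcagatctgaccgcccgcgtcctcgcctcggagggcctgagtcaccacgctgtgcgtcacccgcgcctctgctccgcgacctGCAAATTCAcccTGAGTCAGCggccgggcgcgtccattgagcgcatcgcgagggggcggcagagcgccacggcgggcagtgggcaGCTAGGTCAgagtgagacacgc
Txnrd1, chr10:82858956-82859255, plus strand: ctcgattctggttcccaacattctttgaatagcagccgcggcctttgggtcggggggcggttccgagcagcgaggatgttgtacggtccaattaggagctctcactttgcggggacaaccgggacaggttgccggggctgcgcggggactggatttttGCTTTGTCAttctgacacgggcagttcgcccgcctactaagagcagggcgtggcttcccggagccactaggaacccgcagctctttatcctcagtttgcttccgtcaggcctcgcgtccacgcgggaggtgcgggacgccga
Gclm, chr3:122245307-122245606, plus strand: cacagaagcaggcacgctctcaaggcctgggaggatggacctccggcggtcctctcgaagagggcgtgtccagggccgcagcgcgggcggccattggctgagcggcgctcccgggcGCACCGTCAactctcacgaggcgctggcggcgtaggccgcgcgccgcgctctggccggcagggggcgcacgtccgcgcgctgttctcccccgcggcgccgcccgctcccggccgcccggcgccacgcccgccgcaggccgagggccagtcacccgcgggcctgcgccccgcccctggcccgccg
Nfe2l2, chr2:75704614-75704913, minus strand: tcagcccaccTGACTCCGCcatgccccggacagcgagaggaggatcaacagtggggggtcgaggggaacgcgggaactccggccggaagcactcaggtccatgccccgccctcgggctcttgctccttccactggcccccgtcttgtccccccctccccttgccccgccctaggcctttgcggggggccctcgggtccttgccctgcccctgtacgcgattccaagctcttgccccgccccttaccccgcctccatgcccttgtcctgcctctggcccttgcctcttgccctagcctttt
The Srxn1 window held 4 matches of the wider form, of which GCTAGGTCA at position 29 after the start is the core on the other strand and TGAGTCAGC at position -45 reads as written. Each of the other 3 windows printed held 1 match, which was also the core: GCTTTGTCA at position -92 of this Txnrd1 start, GCACCGTCA at position -134 of Gclm and TGACTCCGC at position -240 of Nfe2l2. The windows of Nqo1 and Sod2 held neither form. Those are statements about letters in these windows, and no binding was measured.

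In the deposited files Nfe2l2 lies on chromosome 2 (75675513 to 75704641, minus strand), Gclm on chromosome 3 (122245557 to 122270732, plus strand), Gclc on chromosome 9 (77754535 to 77794485, plus strand), Txnrd1 on chromosome 10 (82833951 to 82897712, plus strand) and Srxn1 on chromosome 2 (152105516 to 152111376, plus strand). Gsr (33652523 to 33698163, plus strand), Hmox1 (75093621 to 75100589, plus strand) and Nqo1 (107388225 to 107403206, minus strand) all lie on chromosome 8, and Sod2 lies on chromosome 17. The Sod2 gene model spans 13006846 to 13040063 in the 5-month table and 13007839 to 13018119 in the old-liver table. That of Gclm ends at 122267215 in the old-liver table. For this reason CPM levels are not compared between the tables. Gclm overlaps Gm17494 on the opposite strand and Txnrd1 overlaps Eid3 on its own strand. Their totals over the 21 5-month libraries were 531 and 42 counts, against at least 2281 counts of Gclm and 2353 of Txnrd1 in each library.

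Total counts ran from 18226467 to 28476797 in DKO, 18628627 to 22208756 in MlxKO, 19163529 to 23704156 in MycKO and 18359467 to 22434174 in WT livers. They ran from 34590164 to 37087490 in adenomas and from 16036626 to 18690029 in old WT livers. Myc transcripts averaged 1.31 ± 0.73 CPM in DKO, 10.0 ± 3.2 in MlxKO, 1.67 ± 0.69 in MycKO and 12.9 ± 6.8 in WT livers (SD, n = 5, 4, 6 and 6). Mlx averaged 17.0 ± 1.5, 19.0 ± 2.3, 24.4 ± 2.3 and 26.4 ± 1.9 CPM in the same groups. In adenomas Mlx averaged 25.3 ± 4.1 CPM, against 38.7 ± 5.4 CPM in old WT livers, and Myc 12.7 ± 5.5 CPM, against 4.43 ± 3.53 CPM (SD, n = 5 each). Mlx was thus lower in every library labelled as its knockout than in any WT library of its set, yet not absent. Which stretch of Mlx is floxed was not stated in the labels, and counts over the whole gene do not check its loss. Libraries WT 2, WT 5 and MycKO 5 stood apart on the second principal component of the 5-month set, and WT 1, MycKO 1 and MycKO 2 on the third. Adenoma 5 is labelled male, but had 985 plain CPM of Xist and 0 counts of Y-linked genes.

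All levels below are CPM, counts scaled to TMM-adjusted library sizes, unless TPM is named, and fold changes are log2 values from edgeR's quasi-likelihood fit with a term for sex, ± SE. Calls were made where the Benjamini-Hochberg adjusted p, taken over every gene tested, was under 0.05. Compared per transcript length, by the mean of the authors' TPM in the DKO livers, Gclc was the most abundant of the 9 at 143, followed by Srxn1 at 93.1, Gsr at 90.9, Gclm at 72.6 and Txnrd1 at 51.2. Nfe2l2 at 35.5 TPM, Sod2 at 33.7, Hmox1 at 29.1 and Nqo1 at 9.11 TPM made up the lower part of the range. The WT livers had Gclc at 136 TPM as the highest and Nqo1 at 9.65 TPM as the lowest as well. This order rests on the gene models of the 5-month table, which differ from the other table's for Gclm and Sod2. In old WT livers Gclc at 172 TPM, Gclm at 154 and Sod2 at 99.3 were the highest. The part of the models in this was not tested.

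**Figure D1:**
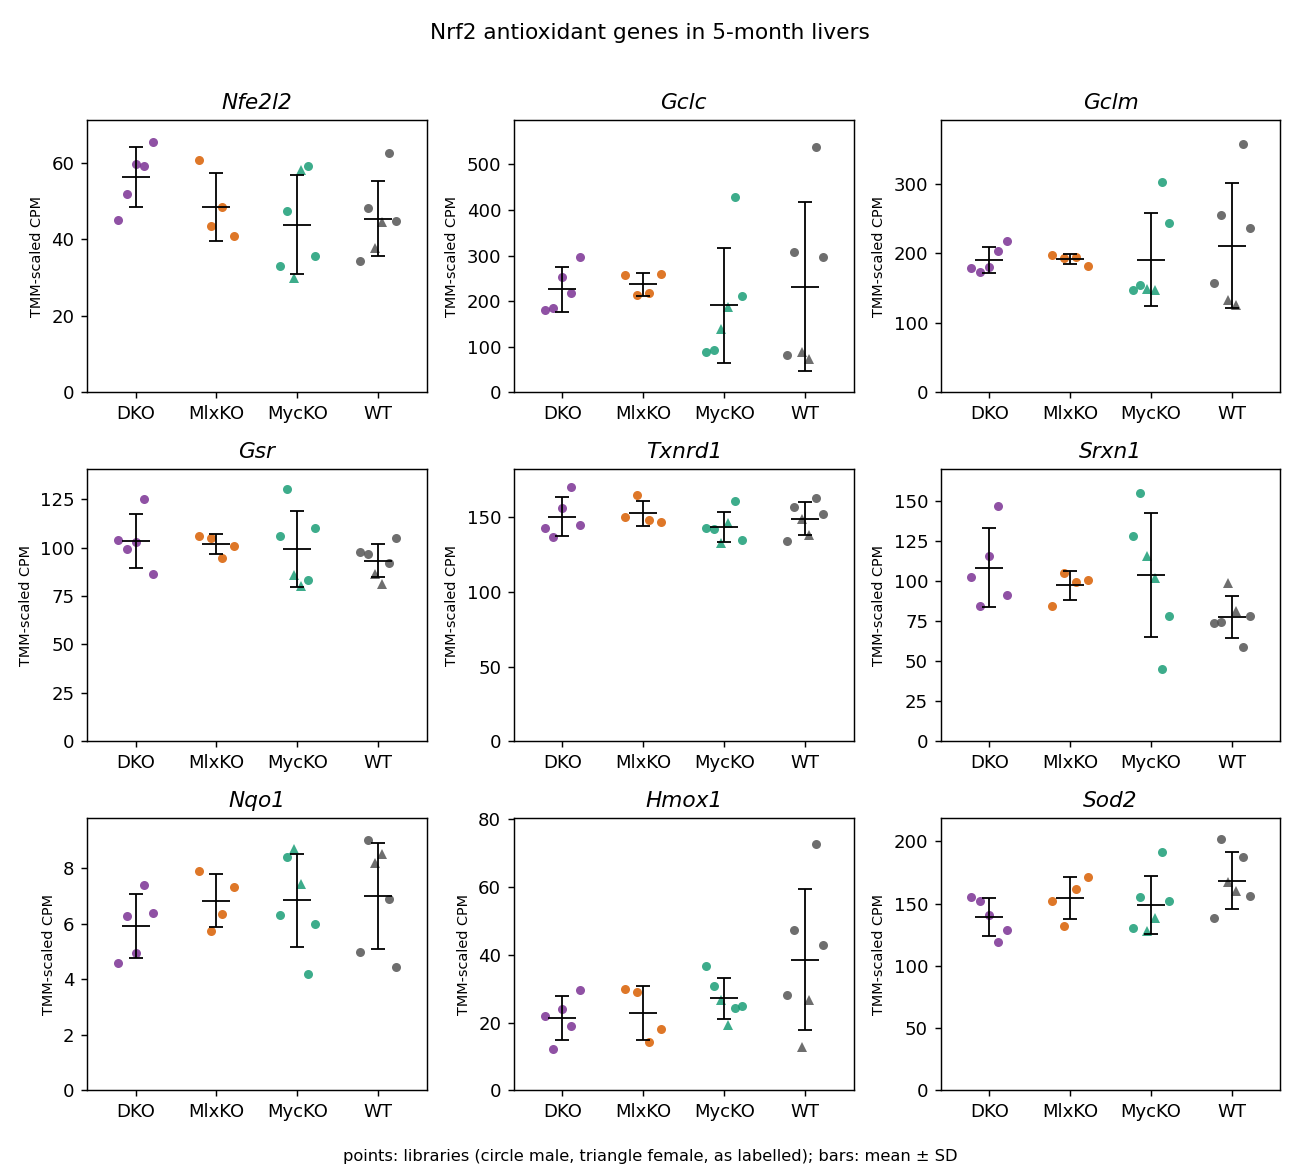
Levels of the 9 genes in the 5-month livers as TMM-scaled CPM (linear axes from 0), 1 point per library with mean ± SD, circles for males and triangles for females as labelled. For every gene the ranges of the 4 groups overlap, and Gclc and Gclm spread far more in MycKO and WT livers than in DKO and MlxKO livers.

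In 5-month livers 1 of the 9 genes, Hmox1, passed the test in DKO against WT and 8 did not. Over all 13397 genes tested 18.5% passed, 7.58% upward and 10.9% downward. The median log2 fold change of the 9 genes was -0.10, beside -0.02 over all genes tested. The count depended on the WT libraries. Without WT 1, MycKO 1 and MycKO 2, the 3 that stood apart on the third component (an alternative chosen after seeing the data), 4 of the 9 passed: Hmox1 (-1.13 ± 0.31, adjusted p = 0.017), Gclm (-0.53 ± 0.13, 0.010) and Sod2 (-0.43 ± 0.13, 0.024) were lower, and Srxn1 (0.70 ± 0.18, 0.014) was higher.

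No member's DKO and WT libraries were apart, as they were for 4.72% of all genes upward and 5.21% downward. Nfe2l2 itself, the gene of the transcription factor, had 45.1, 51.8, 59.8, 59.2 and 65.4 CPM in DKO livers. It had 60.8, 43.4, 48.5 and 41.0 CPM in MlxKO livers. In MycKO livers it had a lowest value of 29.8, a median of 41.6 and a highest of 59.1 CPM, and in WT livers 34.4, 44.7 and 62.5 CPM. The groups overlapped, with 4 of 5 DKO libraries above the WT mean of 45.4 CPM. The fitted differences were 0.28 ± 0.19 for DKO against WT (adjusted p = 0.32), 0.06 ± 0.21 for MlxKO (0.88) and -0.04 ± 0.18 for MycKO (0.98). Nrf2 is controlled largely at the level of the protein, which was not measured.

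Among the glutathione genes, Gclc encodes the catalytic and Gclm the modifier subunit of glutamate-cysteine ligase, the rate-limiting enzyme of glutathione synthesis. Gclc had 180, 184, 254, 217 and 296 CPM in DKO livers. It had 258, 214, 217 and 260 CPM in MlxKO livers. It had 89.3, 91.8, 138, 187, 429 and 211 CPM in MycKO livers and 82.7, 307, 89.2, 73.2, 539 and 296 CPM in WT livers. The WT livers thus fell into a low and a high set, WT 1, 3 and 4 at 73.2 to 89.2 CPM and WT 2, 5 and 6 at 296 to 539 CPM, and all 9 DKO and MlxKO livers had 180 to 296 CPM, above the low set and up to the level of WT 6, the lowest of the high set. The coefficient of variation of Gclc was 21.8% in DKO, 10.8% in MlxKO, 66.2% in MycKO and 80.2% in WT livers. The spread was not tested, and the fitted difference of DKO against WT was -0.20 ± 0.42 (adjusted p = 0.76).

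Gclm moved in the same libraries. It had 179, 173, 180, 203 and 218 CPM in DKO livers and 198, 194, 195 and 182 CPM in MlxKO livers. It had 148, 154, 149, 147, 303 and 244 CPM in MycKO livers and 158, 255, 133, 126, 358 and 237 CPM in WT livers. Its coefficient of variation was 10.0% in DKO, 3.71% in MlxKO, 34.9% in MycKO and 42.5% in WT livers, and the highest library of MycKO and of WT was replicate 5 for both subunits. The 5 libraries lowest on the second principal component, MycKO 5, WT 2, WT 5, MycKO 6 and WT 6, were the 5 with the most Gclm and had the highest Gclc among MycKO and WT livers. Sex ran with this in part, since the 4 females lay at or under 187 CPM of Gclc, but the males WT 1, MycKO 1 and MycKO 2 were as low, at 82.7, 89.3 and 91.8 CPM. The part of sex and of the second component in the spread was not tested. The differences of Gclm from WT were -0.33 ± 0.20 in DKO (adjusted p = 0.24) and -0.32 ± 0.21 in MlxKO livers (0.37).

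Gsr, glutathione reductase, which returns oxidised glutathione to its reduced form, and Txnrd1, the cytosolic thioredoxin reductase, varied little between the groups. Gsr averaged 103 ± 14 CPM in DKO, 102 ± 5 in MlxKO, 99.2 ± 19.4 in MycKO and 93.1 ± 8.4 in WT livers. Txnrd1 averaged 150 ± 13 CPM in DKO, 153 ± 9 in MlxKO, 143 ± 10 in MycKO and 149 ± 11 in WT livers (SD, n = 5, 4, 6 and 6). All 4 groups overlapped for both. The SE of the DKO difference was 0.11 for Gsr (0.06, adjusted p = 0.76) and 0.09 for Txnrd1 (-0.01, adjusted p = 0.96).

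Srxn1, sulfiredoxin, which restores over-oxidised peroxiredoxins, had 103, 84.7, 116, 147 and 91.2 CPM in DKO livers and 84.5, 105, 99.3 and 101 CPM in MlxKO livers. It had 128, 155, 116, 102, 45.2 and 78.3 CPM in MycKO livers and 74.1, 74.4, 99.1, 81.4, 58.8 and 78.2 CPM in WT livers. All 5 DKO and all 4 MlxKO libraries lay above the WT mean of 77.7 CPM, but the ranges overlapped through WT 3. The differences from WT were 0.56 ± 0.23 in DKO (adjusted p = 0.09), 0.41 ± 0.24 in MlxKO (0.32) and 0.43 ± 0.21 in MycKO livers (0.65), and none passed. The DKO difference passed with plain library totals (0.70 ± 0.23, adjusted p = 0.045), a scaling that moves the median of all genes to 0.11, and with the 2 groups fitted alone (0.60 ± 0.17, 0.042). The lowest MycKO library was replicate 5, the one highest in Gclc.

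Nqo1, the quinone reductase often used to read Nrf2 activity, was the lowest of the 9, at 5.93 ± 1.15 CPM in DKO, 6.84 ± 0.96 in MlxKO, 6.84 ± 1.69 in MycKO and 7.0 ± 1.9 in WT livers (SD, n = 5, 4, 6 and 6). These values rest on 85 to 240 counts per library. The DKO difference from WT was -0.10 ± 0.20 (adjusted p = 0.76).

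**Figure D2:**
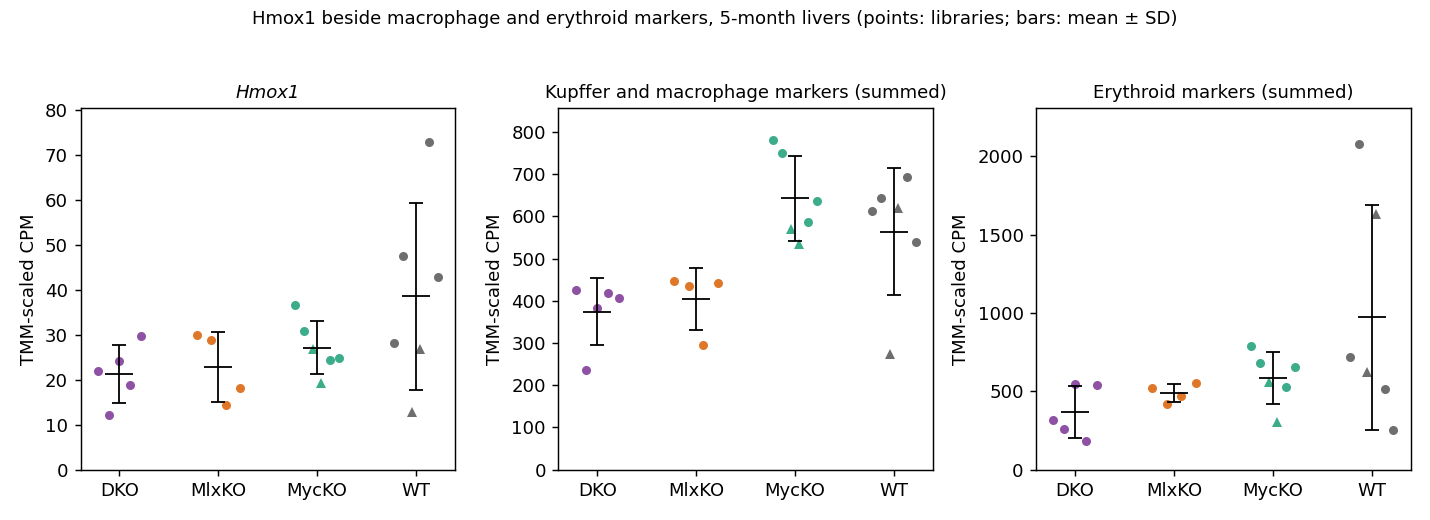
Hmox1 (left), the summed Kupffer cell and macrophage markers (middle) and the summed erythroid markers (right) in 5-month livers as TMM-scaled CPM, 1 point per library with mean ± SD. The macrophage sum is 235 to 426 CPM in DKO and 274 to 692 CPM in WT livers, and Hmox1 is 12.2 to 29.6 and 12.9 to 72.7 CPM.

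Hmox1, heme oxygenase 1, which breaks heme down to biliverdin, iron and carbon monoxide and in liver is prominent in Kupffer cells, was lower in DKO livers. It had 21.9, 12.2, 24.1, 18.9 and 29.6 CPM in DKO livers and 30.0, 28.9, 14.3 and 18.1 CPM in MlxKO livers. It had 36.6, 30.8, 26.8, 19.3, 24.3 and 24.9 CPM in MycKO livers and 28.2, 47.4, 12.9, 26.8, 72.7 and 42.9 CPM in WT livers. Every DKO library lay under the WT mean of 38.5 CPM, but the ranges overlapped. The females WT 3 and WT 4 and the male WT 1, at 12.9, 26.8 and 28.2 CPM, lay under the highest DKO library at 29.6 CPM. WT 3 was nearly as low as the lowest DKO library. The fit gave -1.02 ± 0.29 for DKO against WT, or 2.03-fold lower (adjusted p = 0.021). In the authors' deposited table, which sets WT over DKO, the log2 fold change of Hmox1 was 0.84, with an FDR of 0.030.

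The Hmox1 call depended on single libraries and on the scaling. Without WT 5, the highest, the difference was -0.75 ± 0.28 (adjusted p = 0.061), and without WT 2 it was -0.99 ± 0.31 (0.051). Without WT 2, WT 5 and MycKO 5, the 3 that stood apart on the second component, it was -0.62 ± 0.30 (adjusted p = 0.18). Without DKO 4 it was -0.98 ± 0.32 (adjusted p = 0.052), without the sex term -0.85 ± 0.32 (0.064), with plain library totals -0.92 ± 0.31 (0.051) and in the male libraries alone -1.16 ± 0.28 (0.015).

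Some markers of other cell types fell in DKO against WT livers as well, and others rose. Of 13 Kupffer cell and macrophage markers 7 fell and none rose, beside 10.9% of all genes downward and 7.58% upward. Their median log2 fold change was -1.0, beside -0.02 over all genes. Examples were the scavenger receptor gene Marco (-2.80 ± 0.59, adjusted p = 0.0040), Cd5l (-1.24 ± 0.25, 0.0029) and C1qa (-1.19 ± 0.25, 0.0039). Their summed level was 235 to 426 CPM in DKO, 295 to 446 in MlxKO, 535 to 780 in MycKO and 274 to 692 CPM in WT livers, and no marker was at 0 throughout a group. All 5 erythroid markers tested fell as well, Hbb-bt, Hbb-bs, Hba-a1, Hba-a2 and Alas2 (median -1.51), with sums of 182 to 544 CPM in DKO and 255 to 2080 CPM in WT livers. Of 8 sinusoidal endothelial markers 2 rose and none fell, and of 9 stellate cell markers 3 rose and none fell. Of 8 T and NK cell markers 1 rose and 1 fell. In MycKO livers the macrophage sum averaged 643 CPM, against 564 CPM in WT livers, and Hmox1 averaged 27.1 against 38.5 CPM. WT 3, the WT library with the least Hmox1, also had the lowest macrophage sum of the WT livers. The part of these cells in the Hmox1 difference was not tested, and in such bulk samples fewer cells of a type and less RNA per cell cannot be told apart. The 3 genes whose standardised log2 profile over the 21 libraries lay nearest to that of Hmox1 were Ripk3, Evl and Ly9, at root-mean-square distances of 0.569, 0.574 and 0.577, beside a median of 1.38 over all genes tested.

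Sod2, the manganese superoxide dismutase of the mitochondrial matrix, had 155, 152, 141, 119 and 129 CPM in DKO livers and 152, 132, 162 and 171 CPM in MlxKO livers. It had 130, 155, 128, 138, 191 and 152 CPM in MycKO livers and 138, 202, 167, 160, 187 and 156 CPM in WT livers. All 5 DKO libraries lay under the WT mean of 168 CPM, yet the ranges overlapped through WT 1. The DKO difference was -0.32 ± 0.13 (adjusted p = 0.079) and did not pass. Without WT 1 it was -0.40 ± 0.13 (adjusted p = 0.037), and DESeq2 gave -0.33 ± 0.13 (0.050, just under the threshold).

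**Figure D3:**
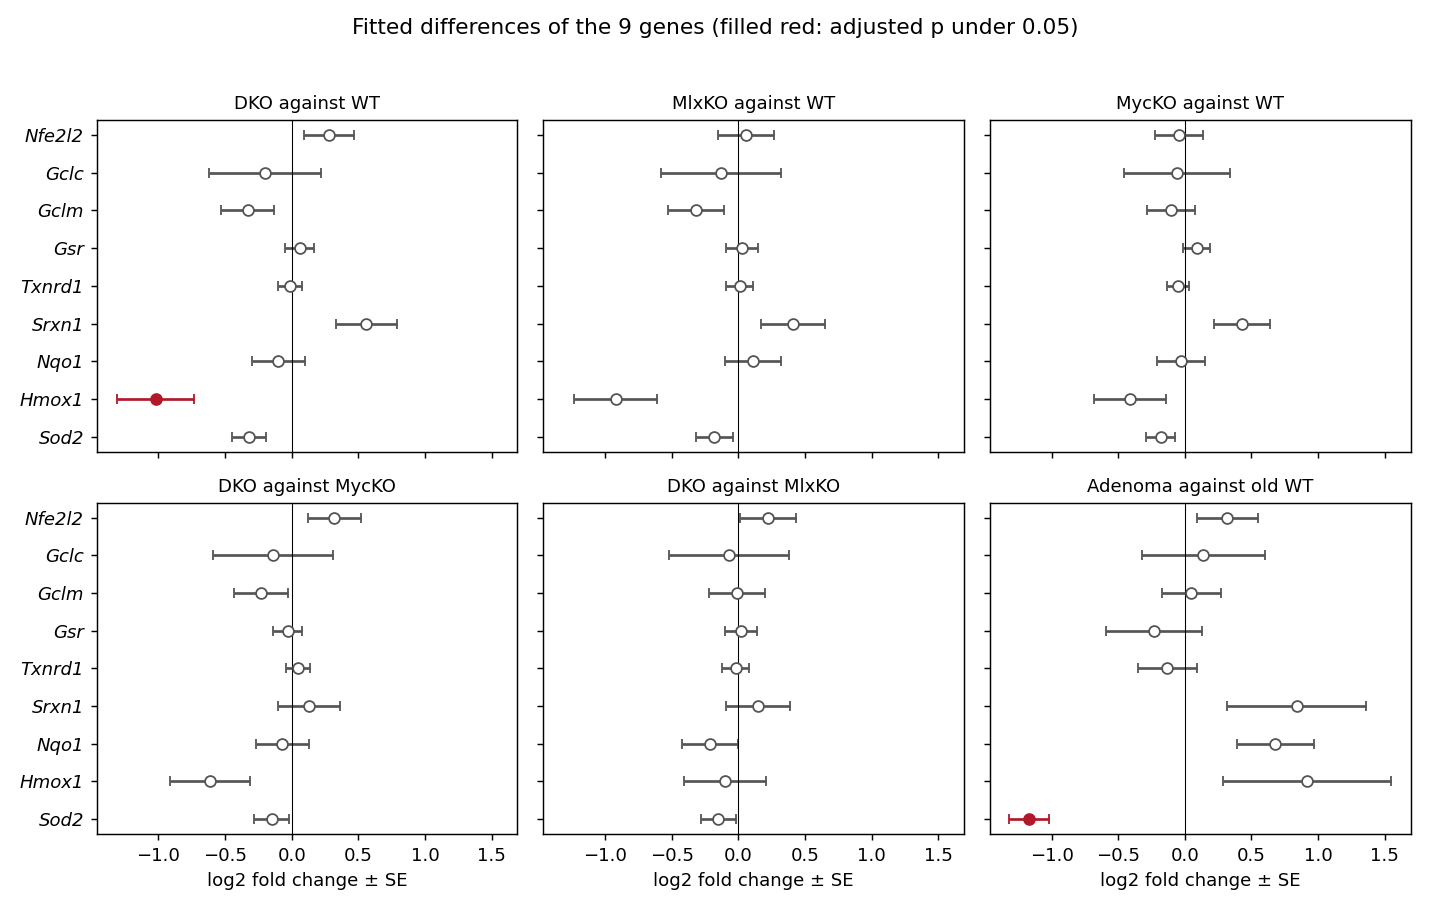
Fitted log2 fold change ± SE of each of the 9 genes in 6 comparisons, with genes at an adjusted p under 0.05 filled in red. Hmox1 in DKO against WT (-1.02) and Sod2 in adenoma against old WT (-1.17) are the filled points.

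The single knockouts gave no call among the 9 genes. In MlxKO against WT none passed with edgeR, beside 1.69% of all genes, and Hmox1 was the 1 member at an unadjusted p under 0.05 (-0.92 ± 0.31, adjusted p = 0.11). DESeq2 called that gene (adjusted p = 0.049) and limma-voom called none. Without WT 1, MycKO 1 and MycKO 2, Gclm passed there (-0.52 ± 0.14, adjusted p = 0.039). In MycKO against WT none passed, beside 0.0896% of all genes, none had an unadjusted p under 0.05, and DESeq2 and limma-voom called none. Hmox1 was at -0.41 ± 0.27 there (adjusted p = 0.77).

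The DKO livers were also set against each single knockout. In DKO against MycKO none of the 9 passed, beside 11.9% of all genes, and in DKO against MlxKO none passed, beside 0.0373% of all genes. In both, none had an unadjusted p under 0.05 and DESeq2 and limma-voom called none. Without WT 1, MycKO 1 and MycKO 2, Gclm (-0.59 ± 0.14, adjusted p = 0.015) and Srxn1 (0.67 ± 0.21, 0.043) passed in DKO against MycKO. Hmox1 differed by -0.61 ± 0.30 between DKO and MycKO livers (adjusted p = 0.18) and by -0.10 ± 0.31 between DKO and MlxKO livers, with an adjusted p that rounded to 1. Whether the log2 effects of the 2 losses add up was tested too, as the Myc by Mlx interaction. It passed for none of the 9, beside 0% of all genes with edgeR (469 at an unadjusted p under 0.05, and 4 with DESeq2), and none of the 9 had an unadjusted p under 0.05. DESeq2 and limma-voom called no member, and the term of Hmox1 was 0.31 ± 0.41. DKO against WT and the single knockouts against WT share the WT libraries, so their values are given side by side only.

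The wider Nrf2 response was read from a list of other targets. Of 30 other Nrf2 targets tested (32 listed) 8 fell and none rose in DKO against WT, that is 26.7% downward beside 10.9% of all genes, with a median log2 fold change of -0.48. This count also moved with single libraries: WT 2 was the highest WT library for 20 of the 30 (66.7%), beside 18.6% of all genes tested. Without WT 2, 2 targets fell, without WT 1 13 fell, and without any 1 DKO library 3 to 5 fell. Gsta2, a glutathione transferase, averaged 13.3 ± 3.5 CPM in DKO and 28.6 ± 27.4 CPM in WT livers (-1.47 ± 0.39, adjusted p = 0.015). Its DKO values of 9.76 to 18.7 CPM lay inside the WT range of 6.14 to 73.2 CPM. The carboxylesterase gene Ces2g averaged 8.81 ± 1.52 CPM in DKO and 20.9 ± 7.7 CPM in WT livers (-1.24 ± 0.29, adjusted p = 0.0081). Gsta3 (-1.12 ± 0.39, adjusted p = 0.050, just under the threshold) and Me1 were next. Me1, the cytosolic malic enzyme that makes NADPH and is also a lipogenic gene, averaged 85.3 ± 15.9 CPM in DKO and 204 ± 29 CPM in WT livers (-1.09 ± 0.16, adjusted p = 0.00026). The DKO and WT ranges of Ces2g and Gsta3 also overlapped, while those of Me1, 58.9 to 102 and 152 to 232 CPM, were apart.

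Of 23 other antioxidant and thiol enzymes tested (24 listed) 10 fell and none rose in DKO against WT, 43.5% downward beside 10.9% of all genes, with a median of -0.40. Without WT 2, 6 fell, and without WT 2, WT 5 and MycKO 5, 4 fell. Gpx4, the glutathione peroxidase of lipid peroxides, averaged 182 ± 14 CPM in DKO and 310 ± 70 CPM in WT livers (-0.80 ± 0.16, adjusted p = 0.0027). Prdx5, a peroxiredoxin, differed by -0.77 ± 0.21 (adjusted p = 0.016), Sod1, the cytosolic superoxide dismutase, by -0.65 ± 0.18 (0.021) and Txn2, the mitochondrial thioredoxin, by -0.63 ± 0.14 (0.0057). Of the 11 regulators and partners of Nrf2 1 rose, beside 7.58% of all genes upward, and none fell. The 1 that rose was Syvn1, a ubiquitin ligase of the endoplasmic reticulum (129 ± 40 CPM in DKO and 60.4 ± 14.1 CPM in WT livers, 1.16 ± 0.28, adjusted p = 0.0088). Keap1 averaged 51.8 ± 5.3 CPM in DKO and 60.5 ± 11 CPM in WT livers and did not pass.

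In MlxKO against WT 2 other targets fell, Ces2g (-1.26 ± 0.32, adjusted p = 0.047) and Me1 (-1.0 ± 0.17, 0.0067), and 1 antioxidant enzyme, the selenium carrier Selenop (-0.74 ± 0.18, 0.044). These are 6.67% and 4.35% of the lists, beside the 1.69% of all genes called in either direction. Leaving out any 1 of WT 2 to WT 5 or of the MlxKO libraries left 1 target and 0 antioxidant enzymes, and without WT 1 or WT 6 there were 3 and 5 antioxidant enzymes. The medians were -0.44 over the targets and -0.36 over the antioxidant enzymes, beside -0.02 over all genes. In DKO against MycKO 5 targets fell, Me1 (-1.19 ± 0.16, adjusted p = 0.00046), Ces2g (-1.14 ± 0.29, 0.017), Gstp1 (-1.08 ± 0.27, 0.014) and Cbr1 (-0.99 ± 0.23, 0.011) the furthest, and 5 antioxidant enzymes fell. These are 16.7% and 21.7% of the lists, beside 7.52% of all genes downward. Without MycKO 5 these counts were 3 and 2, and without MycKO 1 or DKO 1 the antioxidant enzymes numbered 8 and 3. Among the regulators Syvn1 (1.28 ± 0.27, adjusted p = 0.0062) and Nfe2l1 (0.51 ± 0.14, 0.023), the gene of the related factor Nrf1, rose there, beside 4.36% of all genes upward. In MycKO against WT and in DKO against MlxKO no gene of these 3 lists passed with edgeR. At an unadjusted p under 0.05 there were 4 genes of the 3 lists in each of these comparisons, and DESeq2 and limma-voom called no target or antioxidant enzyme in either.

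**Figure D4:**
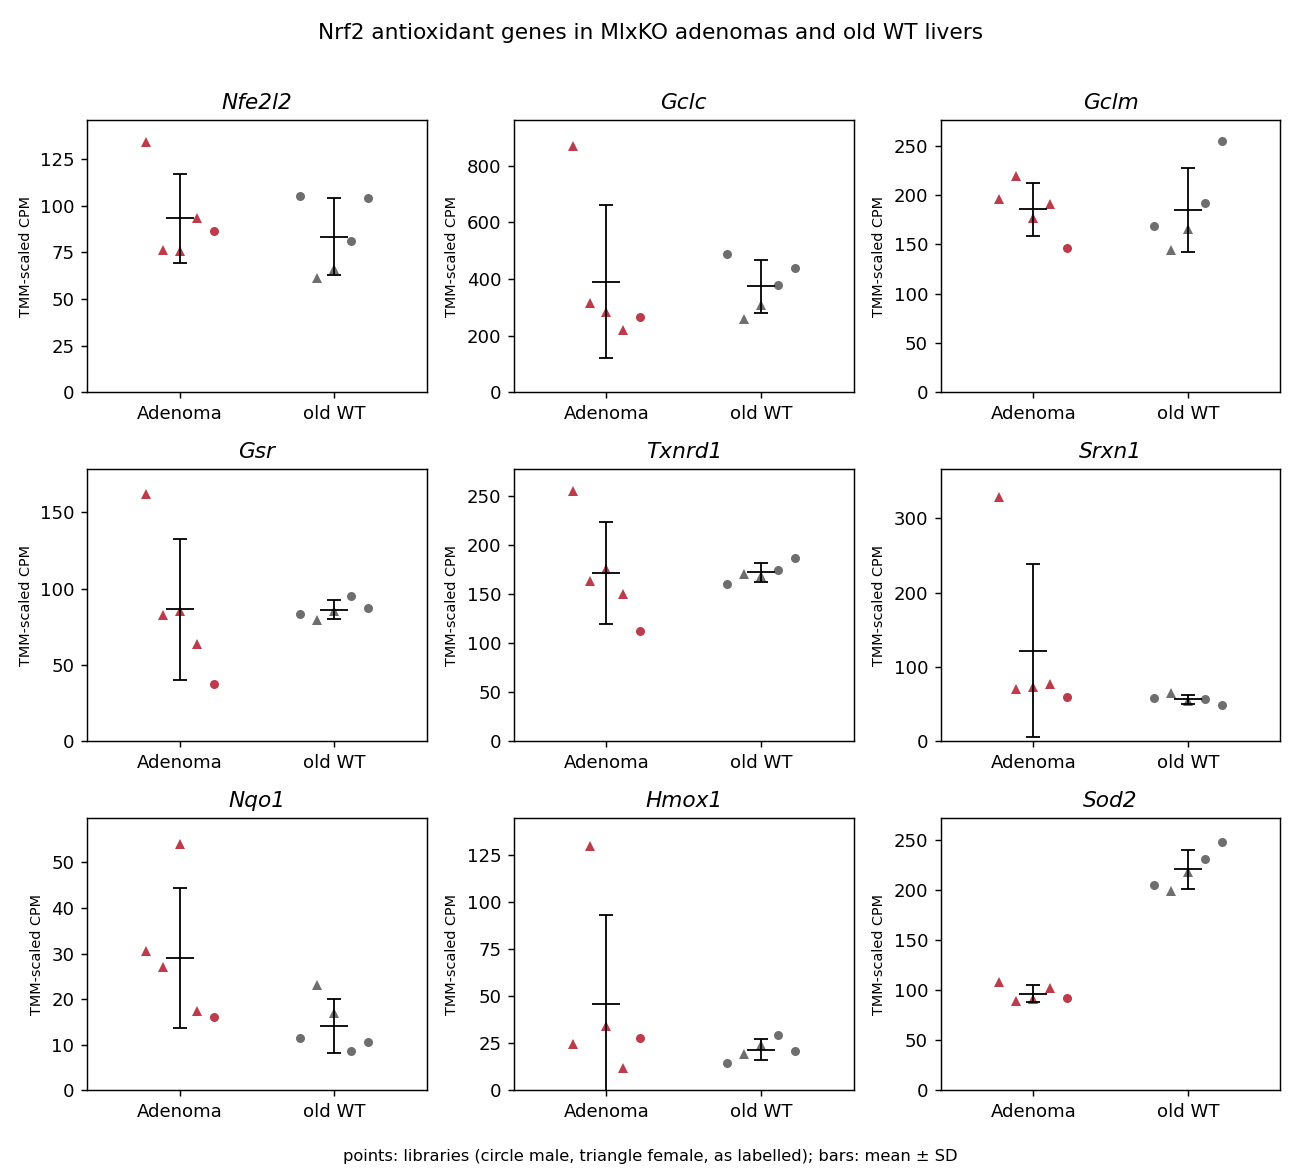
Levels of the 9 genes in adenomas and old WT livers as TMM-scaled CPM (linear axes from 0), 1 point per library with mean ± SD, circles for males and triangles for females as labelled. Sod2 is the 1 gene whose groups do not overlap, at 89.1 to 108 CPM in adenomas and 199 to 248 CPM in old WT livers, and 1 adenoma lies far above the rest for Gclc and Srxn1, and another for Hmox1.

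In adenomas against old WT livers Sod2 was the 1 gene of the 9 that passed the test, downward. Of all 13954 genes tested 16.4% passed, 8.74% upward and 7.68% downward. Sod2 had 108, 89.1, 90.9, 102 and 92.2 CPM in adenomas and 205, 199, 218, 231 and 248 CPM in old WT livers. Every adenoma lay under every old WT liver, as did 9.15% of all genes tested in that direction. The difference was -1.17 ± 0.15, or 2.25-fold lower (adjusted p = 0.0013). With plain library totals, a scaling that moves the median of all genes to 0.42, it was -0.79 ± 0.14 (adjusted p = 0.0049). The authors' deposited table, which sets old WT over the tumour, gives Sod2 a log2 fold change of 1.18 with an FDR of 0.00070.

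The 3 genes nearest to Sod2 over the 10 old libraries were Pdha1, which encodes a subunit of the mitochondrial pyruvate dehydrogenase, Gm2065 and Rmdn3, at distances of 0.161, 0.167 and 0.173, beside a median of 1.36. Pdha1 averaged 75.5 CPM in adenomas and 161 CPM in old WT livers. Other cell markers were read beside this. Of 10 hepatocyte markers albumin was the 1 that fell, to 5350 ± 2450 CPM in adenomas, against 84100 ± 18500 CPM in old WT livers (SD, n = 5 each, adjusted p = 0.00090), and none rose. The other 9 summed to 27100 to 39200 CPM in adenomas and 31200 to 49300 CPM in old WT livers, with overlapping ranges. Of 5 neutrophil markers tested, S100a8, S100a9, Ngp and Retnlg rose. Of 11 pericentral hepatocyte genes 5 fell and none rose (median log2 fold change -1.82). Of 14 acute phase genes 6 rose and none fell (median 1.39). Upward calls also came from 1 of 13 macrophage, 2 of 8 T and NK cell, 3 of 9 stellate and 2 of 6 biliary markers, with none downward. Of all genes 8.74% passed upward and 7.68% downward. The part of albumin and of these genes in the Sod2 difference was not tested.

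Nqo1 was higher in most adenomas without passing the test. It had 30.6, 27.0, 54.0, 17.5 and 16 CPM in adenomas. It had 23.0 and 17.0 CPM in the 2 female and 11.4, 8.71 and 10.5 CPM in the 3 male old WT livers. Every adenoma lay above the old WT mean of 14.1 CPM, but the ranges overlapped through the females, which lay above every male of their group. The difference was 0.68 ± 0.29 (adjusted p = 0.13) with the sex term, 1.04 ± 0.36 (0.052) without it and 0.54 ± 0.42 (0.43) with adenoma 5 taken as female. The authors' deposited table, with old WT over the tumour, has Nqo1 at -1.05 with an FDR of 0.0082. With plain library totals the difference was 1.05 ± 0.29 (adjusted p = 0.024), and without adenoma 4 it was 0.81 ± 0.24 (0.039). In 5-month WT and MycKO livers the sexes overlapped in Nqo1.

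Nfe2l2 had 134, 76.1, 75.8, 93.3 and 86.5 CPM in adenomas and 105, 61.5, 65.9, 81.0 and 104 CPM in old WT livers, with overlapping groups (0.32 ± 0.23, adjusted p = 0.37, and 0.70 ± 0.24, adjusted p = 0.050, with plain library totals, just under the threshold and so a call there). Gclm averaged 186 ± 27 CPM in adenomas and 186 ± 42 CPM in old WT livers (0.05 ± 0.22, adjusted p = 0.91).

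Adenoma 1 was the highest of the 5 tumours for 6 of the 9 genes (66.7%), beside 24.5% of all genes tested. Srxn1 had 329, 70.7, 73.0, 76.8 and 59.3 CPM in adenomas and 58.1, 64.5, 54.4, 57.2 and 48.6 CPM in old WT livers, so that adenoma 1 was 4.29-fold above the next tumour. Gclc had 870, 314, 284, 219 and 265 CPM in adenomas and 490, 260, 307, 379 and 439 CPM in old WT livers, 2.77-fold above the next tumour in adenoma 1. In the other 4 tumours Gclc was at most 314 CPM and overlapped the old WT livers. Srxn1 was at most 76.8 CPM there and overlapped them through adenoma 5 alone. Adenomas 2, 3 and 4, at 70.7, 73.0 and 76.8 CPM, lay above every old WT liver, the highest of which had 64.5 CPM. Gsr had 162, 83.0, 85.5, 63.9 and 37.8 CPM in adenomas against 79.3 to 95.5 CPM in old WT livers, and Txnrd1 had 255, 164, 176, 150 and 113 CPM in adenomas against 161 to 187 CPM in old WT livers. Adenoma 1 was the highest and adenoma 5 the lowest tumour for both. The fitted differences were 0.84 ± 0.52 for Srxn1 (adjusted p = 0.29), 0.14 ± 0.46 for Gclc (0.86), -0.23 ± 0.36 for Gsr (0.69) and -0.13 ± 0.22 for Txnrd1 (0.72). Without adenoma 1 they were 0.24 ± 0.13 (adjusted p = 0.23), -0.30 ± 0.22 (0.38), -0.49 ± 0.24 (0.18) and -0.26 ± 0.17 (0.31) for the same genes.

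**Figure D5:**
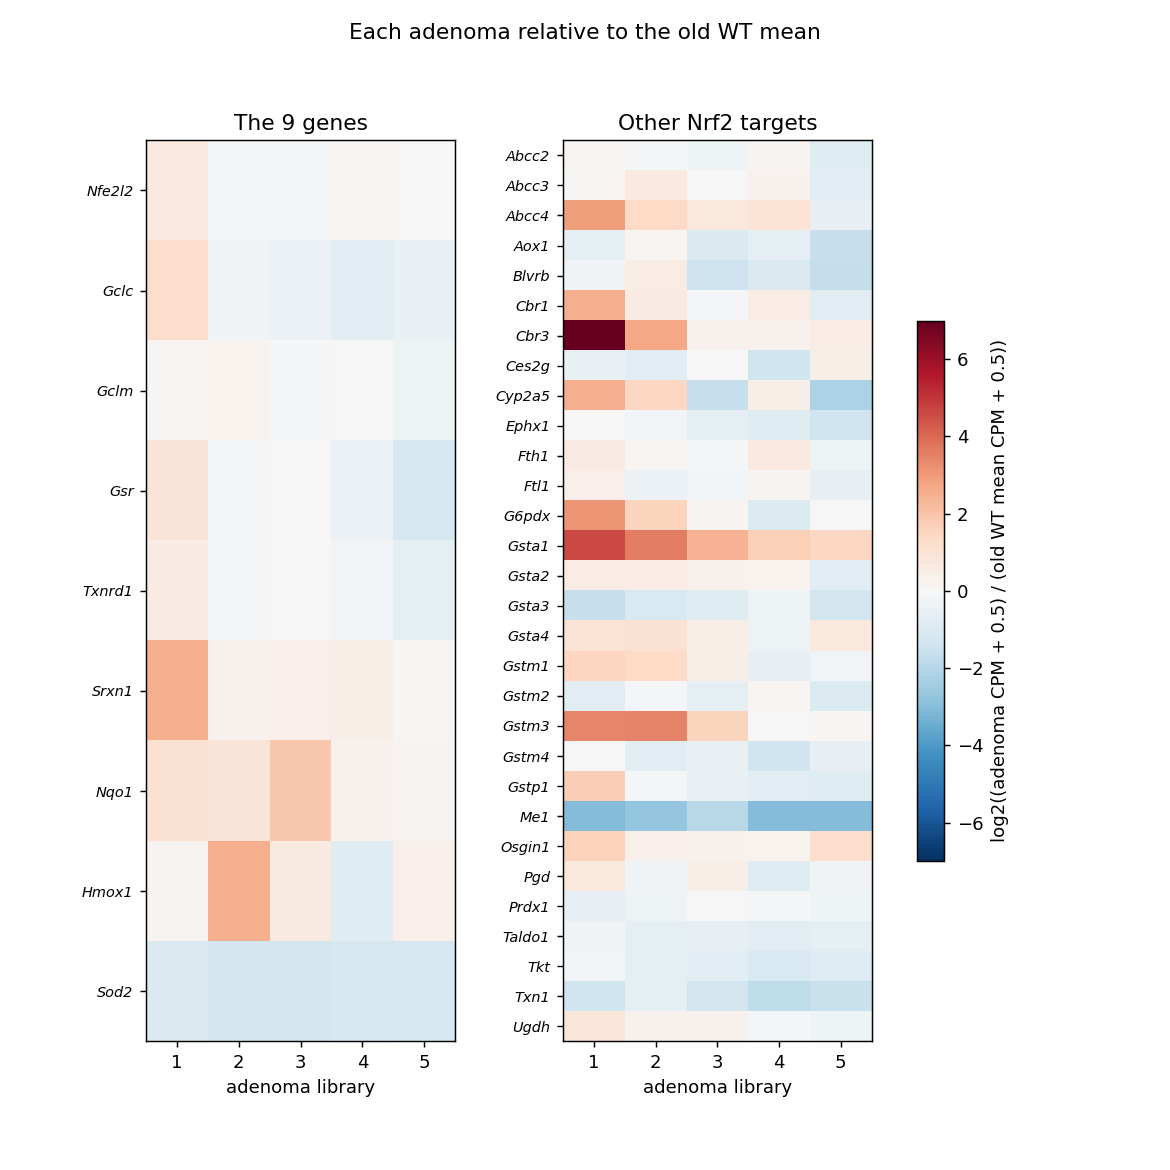
Log2 ratio of each adenoma's CPM to the mean of the 5 old WT livers (0.5 CPM added to both) for the 9 genes (left) and 30 other Nrf2 targets (right), red for higher and blue for lower. Adenoma 1 has the deepest red for Srxn1, Gclc, Cbr3, Cbr1 and Gstp1, while Sod2 and Me1 are blue in all 5 tumours.

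Many other listed targets of Nrf2 were high in adenoma 1 as well. This tumour was chosen after its values were seen, so the counts that follow are a description. Adenoma 1 was the highest tumour for 16 of 30 other targets (53.3%), beside 24.5% of all genes tested. It lay over 2-fold above the median of the other tumours for 11 of the 30 (36.7%), beside 6.68% of all genes. By the same measure adenoma 2 did so for 7 of the 30 (23.3%), beside 11.8% of all genes. Adenomas 3, 4 and 5 did so for 1, 0 and 1. Cbr3, a carbonyl reductase, had 172 CPM in adenoma 1, 1.17 to 8.64 CPM in the other 4 tumours and 0.876 ± 0.121 CPM in old WT livers (SD, n = 5). Its neighbour in function, Cbr1, had 485 CPM, against 50 to 125 CPM in the other tumours. The glutathione transferase gene Gstp1 had 2810 CPM, against 473 to 788 CPM. G6pdx, the first enzyme of the oxidative pentose phosphate pathway, had 44.7 CPM, against 2.23 to 14.8 CPM, and the exporter gene Abcc4 had 80.4 CPM, against 6.63 to 27.4 CPM.

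Among the regulators in adenoma 1, Sqstm1, whose protein p62 can bind Keap1, had 832 CPM, against 417 to 528 CPM in the other tumours. Keap1 itself had 48.7 CPM, inside the range of 40.0 to 58.0 CPM of all 5 tumours. Adenoma 1 had 36493242 counts in total, within the range of the other tumours, and a macrophage sum of 488 CPM, against 349 to 2210 CPM in the others. It stood apart over all genes tested as well. On the second principal component of the old set (15.4% of the variance) it lay at 65, against -27.8 to -7.6 in the other tumours. Adenomas 2 and 4 stood apart on the third component, at -55.2 and 76.4. Of the 23 other antioxidant and thiol enzymes adenoma 1 was the highest tumour for 5 (21.7%).

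Hmox1 was high in another tumour. It had 24.9, 130, 34.0, 11.9 and 27.9 CPM in adenomas and 14.5, 19.3, 24.2, 29.5 and 20.7 CPM in old WT livers. Adenoma 2 was 3.82-fold above the next tumour, and the other 4 spread around the old WT livers. The difference over all tumours was 0.92 ± 0.63 (adjusted p = 0.34), and without adenoma 2 it was 0.23 ± 0.31 (adjusted p = 0.66). Adenoma 2 also had the highest macrophage sum, 2210 CPM against 349 to 968 CPM in the other tumours, the highest erythroid sum, 2310 against 701 to 1510 CPM, and the highest neutrophil sum, 84.6 against 3.79 to 49.0 CPM. Their part in its Hmox1 level was not tested. The authors' deposited table, with old WT over the tumour, lists Hmox1 at -1.11 (FDR 0.031) and Srxn1 at -1.11 (FDR 0.017).

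Over the tumours as a group few of the other targets passed. Of 30 tested 1 rose (3.33%, beside 8.74% of all genes) and 2 fell (6.67%, beside 7.68%), with a median of -0.10 beside 0.04 over all genes. Without adenoma 4, 3 rose and 4 fell, and without adenoma 1, 1 rose and 4 fell. Gsta1, a glutathione transferase induced by electrophiles, averaged 108 ± 105 CPM in adenomas and 10.7 ± 9.0 CPM in old WT livers (4.56 ± 1.31, adjusted p = 0.038). Me1 averaged 56.3 ± 21.5 CPM in adenomas and 363 ± 157 CPM in old WT livers (-2.27 ± 0.38, adjusted p = 0.0042), and Txn1, cytosolic thioredoxin, averaged 92.7 ± 29.4 CPM in adenomas and 229 ± 19 CPM in old WT livers (-1.39 ± 0.22, adjusted p = 0.0038).

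Of 23 other antioxidant and thiol enzymes 1 rose (4.35%, beside 8.74% of all genes) and 7 fell (30.4%, beside 7.68%) in adenomas, with a median of -0.26. There were 5 such calls without adenoma 3, 4 without adenoma 5, 3 each without old WT 2 or old WT 3, 5 without old WT 4, and 5 with adenoma 5 taken as female. Gpx3, the secreted glutathione peroxidase, rose (45.8 ± 28.3 CPM in adenomas and 10.0 ± 1.9 CPM in old WT livers, 1.85 ± 0.41, adjusted p = 0.015). Sod1 fell (364 ± 72 CPM in adenomas and 830 ± 216 CPM in old WT livers, -1.36 ± 0.24, adjusted p = 0.0056), as did the methionine sulfoxide reductase gene Msra (-1.16 ± 0.16, 0.0021) and the catalase gene Cat (-1.09 ± 0.22, 0.010). Of 11 regulators and partners 1 rose, beside 8.74% of all genes, and 2 fell, beside 7.68%. The small Maf gene Maff rose (1.44 ± 0.43, adjusted p = 0.044), and Nfe2l1 (-0.82 ± 0.16, 0.0089) and Keap1 (-0.76 ± 0.16, 0.011) fell. Keap1 averaged 49.6 ± 6.8 CPM in adenomas and 74.9 ± 18.5 CPM in old WT livers, with overlapping ranges.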

How the data were processed

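Poly(A) RNA was sequenced from 31 mouse liver or liver adenoma libraries. The authors deposited 1 table per age set, holding counts of reads per gene and library, TPM per gene and library, and their own log2 fold changes with p-values for pairs of groups. Per the submitters' processing notes the build is GRCm38.p6. The aligner, counter, strand setting and test that the authors used were not given in the sources used here. In the adenomas even numbers made up 81.0 to 83.1% of counts under 20, against 42.3 to 44.1% in the old WT livers, so halved adenoma counts were an alternative. The 42 and 20 other normalized columns of single samples were not used. The old table lists Selenop as Sepp1.

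Counts were tested with edgeR 4.0.16 in R 4.3.3: filterByExpr (minimum count 10), TMM scaling, a term for group and a term for sex, estimateDisp, glmQLFit and glmQLFTest. The 2 age sets were fitted apart, each with all its libraries, and the Benjamini-Hochberg adjustment ran over 13397 genes at 5 months and 13954 in the old set. The SE of a fold change was its size over the square root of F. Means are ± SD. Biological variation came to 0.261 at 5 months and 0.385 in the old set (edgeR's common coefficient), and no 2 replicates agreed within sampling noise, the closest having a chi-square of 16.1 per gene. Because of the sex term, fold changes can differ from ratios of the printed means. The script was tested on simulated data. The alternatives were DESeq2 1.42.0, limma-voom (limma 3.58.1), other scalings and filters, no sex term, other sets of libraries and leaving out each library.

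Named genes are all 9 members and, from each list, up to 4 genes with the largest fold change among those past the threshold, per comparison. Genes named for being high in adenoma 1 were chosen after their values were seen. The members and the lists were chosen with earlier results of these data known. Likeness is the root-mean-square distance of standardised log2(CPM + 0.5) profiles. The labels place no animals in a shared batch.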

Additional observations from a re-analysis of the deposited data

Results flagged for a closer look

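Each of the 9 genes was searched in each of the 6 groups for a library whose gap to its nearest neighbour is large for the group's range, by Dixon's test at the 95% level. Chance alone marks about 1 in 20 of the 54 sets, and 5 were marked. Gclc had 429 CPM in MycKO 5, against 89.3 to 211 CPM in the other MycKO livers. Txnrd1 had 165 CPM in MlxKO 2, against 147 to 150 CPM in the other MlxKO livers. Gclc had 870 CPM in adenoma 1, against 219 to 314 CPM in the other adenomas. Srxn1 had 329 CPM in adenoma 1, against 59.3 to 76.8 CPM in the other adenomas. Hmox1 had 130 CPM in adenoma 2, against 11.9 to 34.0 CPM in the other adenomas. No interaction of Myc and Mlx passed the threshold for a member.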

How the results depend on the processing

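Over the alternatives run, 1295 values of the 9 genes were called in both fits, or in neither and within 1 SE of the main value. No limit was set on how far a value called in both could move. Another 44 were called in neither and moved further, 14 gained a call and 6 lost it, and no called value changed sign. Sod2 in adenoma against old WT passed in 18 of 18 alternatives (-1.22 to -0.79), and Hmox1 in DKO against WT in 15 of 21 (-1.16 to -0.62).

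Counts of calls are given as members, other targets, other antioxidant enzymes or all genes. For DKO against WT, DESeq2 called 2 members and 13 targets, limma-voom 4 targets, plain totals 3 targets, no filter 5 targets, and no sex term 0 members and 5 targets. The 2 groups alone gave 2 members, 5 antioxidant enzymes and 1220 genes, and male libraries alone 6 antioxidant enzymes and 1520 genes. Without WT 2, WT 5 and MycKO 5 there were 0 members, 2 targets, 4 antioxidant enzymes and 1298 genes, and without WT 1, MycKO 1 and MycKO 2 there were 4 members and 14 targets. Leaving out 1 library gave 0 to 2 members, 2 to 13 targets, 6 to 10 antioxidant enzymes and 1218 to 3195 genes.

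For MlxKO against WT, DESeq2 called 1 member and 849 genes, and all-gene counts were 122 without the sex term, 38 with the 2 groups alone and 96 in males alone. Without WT 2, WT 5 and MycKO 5 there were 82 genes, without WT 1, MycKO 1 and MycKO 2 there were 1 member and 645 genes, and leaving out 1 library gave 0 members and 45 to 1055 genes. For MycKO against WT the all-gene counts were 74 (DESeq2), 19 (limma-voom), 7 (no sex term), 1 (the 2 groups alone), 2 (males alone) and 2 to 25 (1 library left out). For DKO against MycKO there were 1037 genes with plain totals, 2 members without WT 1, MycKO 1 and MycKO 2, and 892 to 1772 genes with 1 library left out. For DKO against MlxKO the all-gene counts were 47 (DESeq2), 3 (RLE factors), 3 (plain totals), 22 (the 2 groups alone), 2 (males alone), 15 (without WT 2, WT 5 and MycKO 5) and 1 to 6 (1 library left out). For the interaction they were 4 (DESeq2), 1 (without WT 2, WT 5 and MycKO 5), 2 (without WT 1, MycKO 1 and MycKO 2) and 0 to 1 (1 library left out).

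For adenoma against old WT, DESeq2 called 3503 genes and 7 targets, plain totals 3809 genes, 3 members and 5 targets, no sex term 3486 genes and 9 targets, and adenoma 5 coded as female 1005 genes and 5 antioxidant enzymes. Leaving out 1 library gave 1 to 2 members, 2 to 7 targets, 3 to 11 antioxidant enzymes and 704 to 2906 genes. The cause of these shifts was not tested. Plain totals moved the median of all genes to 0.42 in adenoma against old WT, 0.11 in DKO against WT and 0.14 in MlxKO against WT. No paired analysis was possible because the labels give no replicate numbers that groups share.

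DKO and MlxKO livers were all male, the adenomas and old WT livers differed in sex balance and age, and no Cre is named for the WT mice. Nqo1 had 85 to 240 counts per 5-month library, and its difference in DKO against WT had an SE of 0.20, as did that of Gclm, with at least 2281 counts per library.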
